A study of Mus musculus with 7 samples.

Results

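The 32 adipocyte and lipogenic genes described here were listed by symbol, and were found by matching the symbol column of the count files. All 32 were among the 27179 Entrez genes counted in RNA from flushed femora of 7 mice. They cover hormones secreted by fat cells, proteins of the lipid droplet, the transcription factors of adipogenesis, transporters of fatty acids, glycerol and glucose, the enzymes of lipolysis, and the enzymes that make fatty acids and triglyceride. In these femora 31 of the 32 passed the filter on low counts, the exception being Ucp1. The spread ranged from narrow within each genotype, as for Acaca and Dgat1, to many-fold between control mice, as for Pck1, Cfd, Cidec and Plin1. Other genes lay between.

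Fat cells store triglyceride in a single large droplet coated by perilipins and CIDE proteins, and release it as fatty acids and glycerol during fasting. PPARG and C/EBPα switch on the genes of the mature fat cell. In mice, fat cells lie in the bone marrow cavity, and adiponectin mRNA is also made by stromal cells of the marrow that hold no large droplet. Many enzymes of fatty acid synthesis are in addition used by every dividing cell to make membranes, and several of the transporters and lipases are abundant in skeletal muscle, macrophages or capillary endothelium.

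The RNA came from femora of 12-week-old female C57BL/6 mice, from which the ends had been cut and the marrow flushed. There were 3 mice labelled Dmp1Cre.EfnB2f/f, in which Cre driven by the Dmp1 promoter removes floxed Efnb2 from late osteoblasts and osteocytes, and 4 controls of genotype Dmp1Cre, wild type at Efnb2, so every mouse carried the Cre transgene. The deletion is not directed at fat cells. By the study's methods, 2 Dmp1Cre.EfnB2f/f and 3 control samples were collected on a first day, and 1 of each genotype on a second. The labels do not say which library belongs to which day, so the day cannot be told apart from differences between libraries. Controls were littermates or cousins, and the study's methods describe calcein injections and a fast before bones were collected. The labels name parent crosses. Library 3 labelled f/f and control 3 shared a cross, libraries 1 and 2 came from another, controls 1 and 2 from another, and control 4 from a further one.

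Library totals ran from 17245556 to 22075778 counts. The targeted gene, Efnb2, had 322, 239 and 224 counts in the f/f-labelled mice and 164, 139, 110 and 117 in the controls. Its level thus goes against the labels, although counts over the whole gene do not isolate the floxed exon and cells in which Dmp1 does not drive Cre keep the gene, and the libraries are therefore called f/f-labelled throughout. On the first principal component of all genes tested, which held 56.0% of the variance, controls 1 and 4 (scores 41.8 and 63.4) stood apart from the other 5 libraries (-38.3 to -1.83). Values without control 1, without control 4 or without both, the last chosen after seeing the data, are given for genes in which these libraries stood out. In RNA from whole bone, fewer cells of a type and less RNA per cell cannot be told apart.

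Promoter sequences are shown for the 4 genes whose levels differed most among the controls, of those with more than 3 counts in each (Pck1, Cfd, Cidec and Plin1), and for Adipoq and Fasn, whose controls differed less, all 6 chosen after their values were seen. Each run gives the 150 bases before a RefSeq start site (GRCm38.p6), 5′ to 3′ on the coding strand, with CCAAT or its reverse complement, the NF-Y motif, in capitals.

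Cfd, chr10:79890703-79890852, plus strand: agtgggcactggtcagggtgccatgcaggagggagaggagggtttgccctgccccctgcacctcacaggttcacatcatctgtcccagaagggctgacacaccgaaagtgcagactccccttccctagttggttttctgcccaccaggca
Plin1, chr7:79732777-79732926, minus strand: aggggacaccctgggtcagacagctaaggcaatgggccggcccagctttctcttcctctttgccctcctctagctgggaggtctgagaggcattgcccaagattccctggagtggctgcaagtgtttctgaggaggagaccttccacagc
Cidec, chr6:113435761-113435910, minus strand: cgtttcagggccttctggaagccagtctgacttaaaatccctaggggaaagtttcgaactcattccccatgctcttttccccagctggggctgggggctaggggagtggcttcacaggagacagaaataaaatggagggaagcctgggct
Pck1, chr2:173152923-173153072, plus strand: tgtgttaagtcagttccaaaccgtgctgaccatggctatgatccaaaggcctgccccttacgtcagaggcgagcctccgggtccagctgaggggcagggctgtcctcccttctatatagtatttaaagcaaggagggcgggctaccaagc
Adipoq, chr16:23146386-23146535, plus strand: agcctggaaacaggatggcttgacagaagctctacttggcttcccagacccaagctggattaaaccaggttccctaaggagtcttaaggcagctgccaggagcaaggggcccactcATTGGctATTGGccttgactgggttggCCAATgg
Fasn, chr11:120824548-120824697, minus strand: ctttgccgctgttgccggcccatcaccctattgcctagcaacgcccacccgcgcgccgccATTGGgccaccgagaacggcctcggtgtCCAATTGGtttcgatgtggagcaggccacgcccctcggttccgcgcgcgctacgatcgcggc

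Adipoq and Fasn each held 3 matches in these bases, of which a pair overlaps in Fasn, and the other 4 promoters held 0. The contrast did not extend to the other windows, since those of Plin4, which spanned 5.09-fold among the controls, and of Cd36 also held CCAAT, while Acaca, with the lowest biological coefficient of variation (edgeR's estimate of the spread between mice of a genotype beyond counting error), had none. The RefSeq table had windows for 21 of the 32 genes, 26 windows in all, from 250 bases before to 50 after the start. CCAAT, on either strand, was in 8 of the 26 windows, those of 7 genes, and in 37.4% of all 32851 windows. The core motif of PPAR and RXR (AGGTCA) was in 8 of 26 (16.3% of all). These 8 windows belonged to 6 genes, so windows of a gene are not separate cases. TTGCNNCAA of C/EBP was in 1, that of Thrsp (2.08%), and CACGTG (E-box) in 1, that of Lipe (7.15%). TATAAA was in 2 (13.6%) and TCACNCCAC of SREBP in 0 (1.24%). The direct repeat of the PPAR and RXR motif was in 0 of 26 (0.0396% of all). These are matches of letters and not bound sites.

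Levels are given as CPM, counts scaled to a common library size after TMM normalization, and different genes are compared only per kb of gene length. Over the 7 libraries, Fabp4, a carrier of fatty acids, had the highest mean level, at 222 ± 126 CPM per kb (SD, n = 7). Car3, a carbonic anhydrase abundant in fat and muscle, followed at 174 ± 65.5 CPM per kb. Cfd, Cd36, Adipoq, Dgat1, Slc2a4, Acly, Lpl and Scd1 had means from 86.3 down to 47.1 CPM per kb, and with SDs between 10.1 and 102 their order was not resolved. At the low end, Retn, Cidea, Adrb3 and Lep had means of 1.74, 0.660, 0.533 and 0.247 CPM per kb.

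Markers of mature fat cells were counted and the marker of brown fat was near 0. Of 6 markers of mature adipocytes (Adipoq, Plin1, Cidec, Lep, Fabp4 and Cfd), 5 were counted in every library and Lep in all but control 2. Ucp1, the uncoupling protein that defines brown fat (Entrez gene 22227), had 1 count in f/f-labelled library 1 and in each of controls 1 and 2, and 0 in the other 4 libraries, where a count of 0 allows up to 0.158 to 0.176 CPM (3 counts, counting error only). It was not tested.

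**Figure D1:**
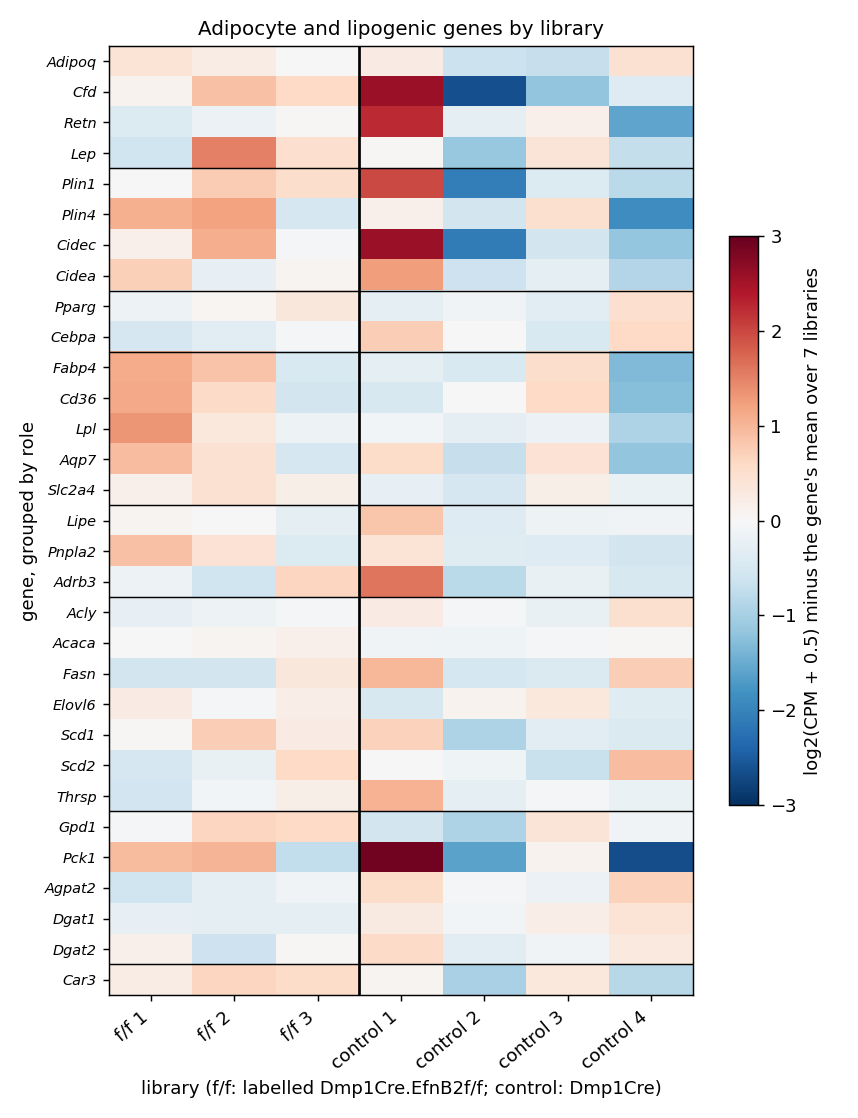
Heat map of the 31 genes tested (rows, grouped by role) in the 7 libraries (columns). Color gives log2(CPM + 0.5) minus the mean of that gene over the 7 libraries. Control 1 was the highest library for 12 of the 31 genes, and control 2 the lowest for 11.

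The order of the libraries was not that of the genotypes. Control 1 was the highest of all 7 libraries for 12 of the 31 genes, control 4 and f/f-labelled library 2 for 6 each, and library 1 for 5. Control 2 was the lowest for 11 and control 4 for 9. The genes for which control 1 led were Cfd, Retn, Plin1, Cidec, Cidea, Cebpa, Lipe, Adrb3, Fasn, Thrsp, Pck1 and Dgat2. Library 1 led for Fabp4, Cd36, Lpl, Aqp7 and Pnpla2, and control 4 for Adipoq, Pparg, Acly, Scd2, Agpat2 and Dgat1.

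Among the secreted factors, adiponectin and adipsin differed in how far they spread. Adipoq, the adipocyte hormone adiponectin (GRCm38 chr16:23146536-23157968), had 109, 96.4 and 81.8 CPM in f/f-labelled libraries 1 to 3 and 97.7, 52.7, 50.4 and 114 CPM in controls 1 to 4. Controls 2 and 3 were low, controls 1 and 4 were at the level of the other genotype, and the groups overlapped. The log2 fold change, f/f-labelled over control, was 0.28 (standard error, SE, 0.31, edgeR quasi-likelihood adjusted p = 0.685). It was 0.51 without control 4 and 0.89 without controls 1 and 4. It fell to 0.13 without control 2, 0.12 without control 3 and 0.18 without f/f-labelled library 1.

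Cfd, the complement factor adipsin (GRCm38 chr10:79890853-79892655), had 50.7, 87.1 and 71.4 CPM in the f/f-labelled mice and 285, 7.13, 20.4 and 35.9 CPM in the controls. The 3 libraries of the first group lay within 1.72-fold, while the controls spanned 39.9-fold with control 1 far above and controls 2, 3 and 4 below all of the other group. On the log2 scale the fold change was -0.32 (SE 1.03, adjusted p = 0.893) with all libraries and 1.72 (SE 0.52, adjusted p = 0.378) without control 1, both from edgeR. Per kb, Cfd stood at 3.89 times Adipoq in control 1 and at 0.181 times in control 2.

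Resistin (Retn) had 18, 23 and 29 counts in the f/f-labelled mice and 172, 20, 29 and 3 in controls 1 to 4. Control 1 was again apart, and without it the log2 fold change of -1.24 (SE 0.98) became 0.35. Leptin (Lep), the satiety hormone, had 4, 48 and 20 counts against 12, 0, 16 and 3, with f/f-labelled libraries 1 and 2 at 11.8-fold apart in CPM. Its log2 fold change was 1.59 (SE 0.95, edgeR adjusted p = 0.530), and at these counts the estimate depends on single libraries.

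Among the lipid droplet proteins, 3 were highest in control 1 and Plin4 was not. Cidec, which enlarges the lipid droplet (GRCm38 chr6:113424634-113435760), had 11.3, 22.1 and 9.91 CPM in the f/f-labelled mice and 64.0, 2.00, 6.73 and 4.29 CPM in the controls. Plin1, the perilipin that guards the droplet from lipases (GRCm38 chr7:79721164-79732904), had 6.23, 10.7 and 9.07 CPM against 25.6, 1.08, 4.45 and 3.31 CPM. In both genes control 1 was highest, and the other 3 controls lay below every f/f-labelled library.

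With all libraries the log2 fold change of Cidec was -0.42 (SE 1.04) and that of Plin1 0.00 (SE 0.86), and without control 1 they were 1.73 and 1.55, with adjusted p = 0.369 and 0.378 from edgeR. Per kb, Adipoq stood at 5.93 times Plin1 in control 1, at 14.0 to 27.1 times in the f/f-labelled mice, at 17.6 times in control 3, and at 75.6 and 53.4 times in controls 2 and 4. The mRNA of adiponectin was thus not in a constant ratio to that of perilipin. Cidea, a droplet protein of brown and beige fat, had 24, 8 and 13 counts against 42, 4, 7 and 2, and its log2 fold change was 0.14 with all libraries and 1.70 without control 1.

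Plin4, a perilipin of small droplets in fat and muscle, followed another order. It had 388, 428 and 131 CPM in the f/f-labelled mice and 208, 127, 260 and 51.0 CPM in the controls. The first 2 exceeded all 4 controls, and library 3 was similar to control 2. By edgeR the log2 fold change was 0.97 (SE 0.55, adjusted p = 0.525), and in the cross that holds both genotypes library 3 lay below control 3 by a log2 ratio of -0.99. Its annotated span overlaps that of Hdgfl2, so some reads could be shared. The same limit holds for Cidec, Cidea, Lipe, Acaca, Acly, Scd2, Elovl6, Car3, Adrb3 and Gpd1, whose spans also overlap other annotated genes.

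Of the transcription factors, Pparg, the master regulator of adipogenesis, ranged from 18.9 to 26.8 CPM in the f/f-labelled mice and from 16.5 to 29.9 CPM in the controls, with a log2 fold change of 0.11 (SE 0.25). It therefore kept within 1.82-fold among controls in which Cidec spanned 32-fold. Cebpa, the factor C/EBPα of adipocytes and of granulocyte precursors, had 41.6, 46.9 and 56.6 CPM against 97.9, 58.7, 42.5 and 89.7 CPM. Controls 1 and 4 were high, control 3 lay below 2 of the 3 libraries of the other group, and the log2 fold change was -0.58 (SE 0.29, edgeR adjusted p = 0.517), and -0.061 without controls 1 and 4. The 9 granulocyte markers summed to 12260 to 15260 CPM in the f/f-labelled mice against 17460 to 20850 CPM. By edgeR 3 were lower at an unadjusted p-value under 0.05 (9.66% of all genes tested, in either direction) and 0 after adjustment. The part of granulocytes in the level of Cebpa was not tested.

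**Figure D2:**
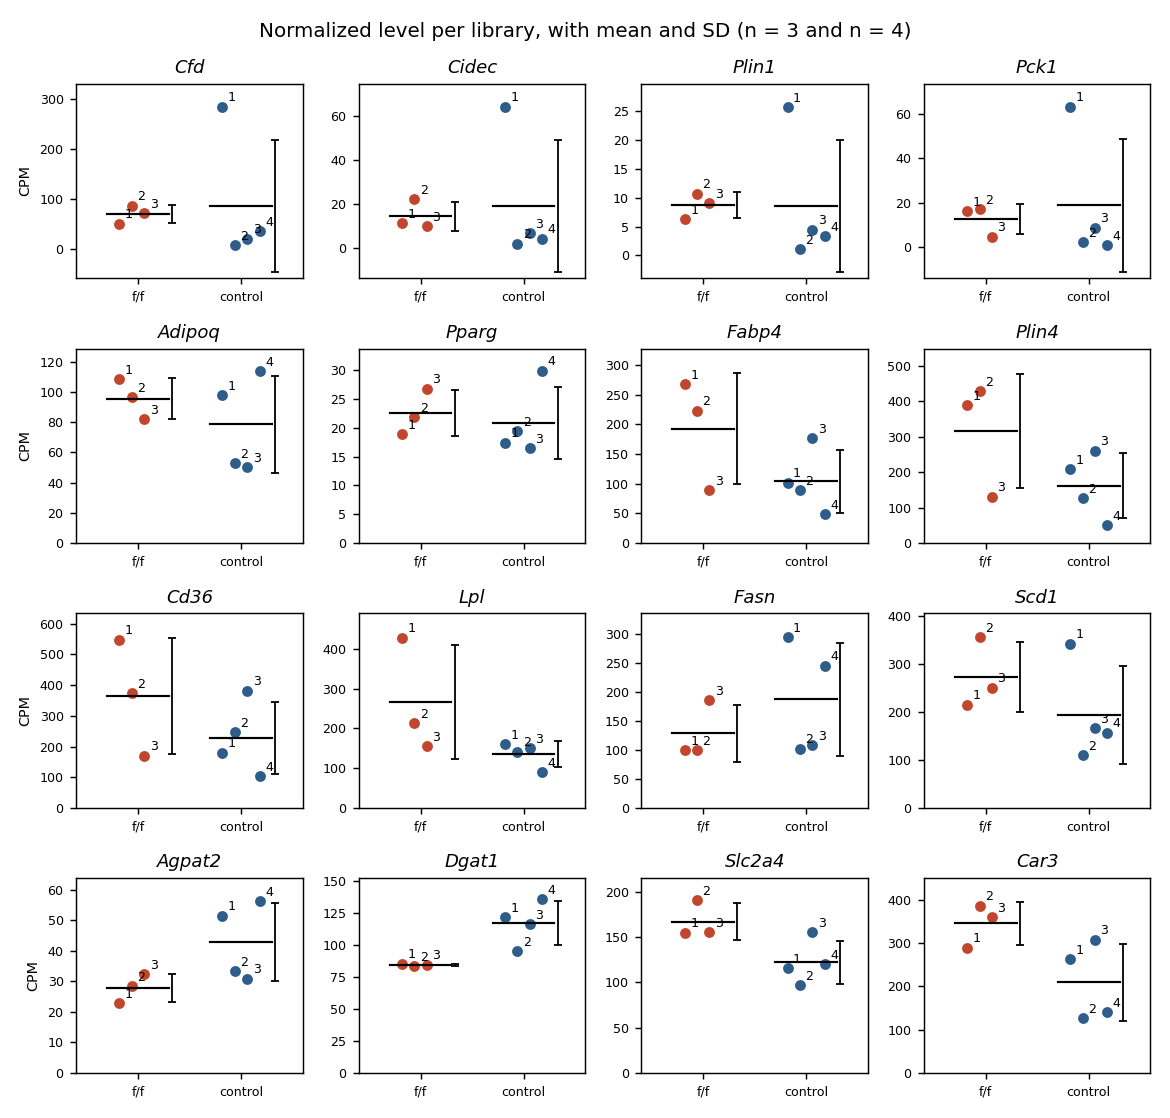
Normalized levels of 16 genes in CPM, on a linear axis for each gene. Points are single libraries with their replicate number, horizontal lines are means, and error bars are SD (f/f: labelled Dmp1Cre.EfnB2f/f, n = 3; control: Dmp1Cre, n = 4). Of the 16, the groups did not overlap for Dgat1 alone, while in Cfd, Cidec, Plin1 and Pck1 control 1 lay far above the other controls.

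All 5 genes of uptake and transport had log2 fold changes above 0, from 0.45 to 0.97, and 0 of them passed the adjusted threshold. Lpl, the lipase that frees fatty acids from circulating lipoproteins (GRCm38 chr8:68880555-68906932), had 428, 214 and 155 CPM in the f/f-labelled mice and 161, 141, 151 and 89.9 CPM in the controls. Library 1 stood apart, and library 3 did not exceed control 1. The log2 fold change was 0.97 (SE 0.35, edgeR unadjusted p = 0.0230, adjusted p = 0.511), and without library 1 it was 0.44.

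Slc2a4, the insulin-responsive glucose transporter GLUT4 of fat and muscle (GRCm38 chr11:69942286-69948216), had 155, 191 and 155 CPM in the f/f-labelled mice against 116, 97.0, 155 and 120 CPM in the controls. Control 3 reached the level of libraries 1 and 3, so the groups overlapped by a narrow margin. On the log2 scale the fold change was 0.45 (SE 0.19, edgeR unadjusted p = 0.0451, adjusted p = 0.511).

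Fabp4, the fatty acid carrier of adipocytes, macrophages and capillary endothelium, had 268, 223 and 88.7 CPM against 102, 89.2, 177 and 48.8 CPM. Cd36, the fatty acid translocase of the same cells and of muscle, had 548, 374 and 170 CPM against 180, 247, 381 and 103 CPM. In both genes libraries 1 and 2 were high, library 3 lay among the controls, control 3 was the highest control and control 4 the lowest. Their log2 fold changes were 0.89 (SE 0.46) and 0.68 (SE 0.48), and between library 3 and control 3 of the shared cross the log2 ratios were -0.99 and -1.16. Aqp7, the glycerol channel, ranged from 2.95 to 8.73 CPM against 1.63 to 6.58 CPM, a log2 fold change of 0.50 (SE 0.53).

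Among the lipolytic genes, Pnpla2, the triglyceride lipase ATGL, had 199, 147 and 80.8 CPM in the f/f-labelled mice and 143, 83.9, 82.3 and 73.1 CPM in the controls. By edgeR the log2 fold change was 0.57 (SE 0.33, adjusted p = 0.527), with library 3 at the level of controls 2 and 3. Lipe, the hormone-sensitive lipase, ranged from 31.3 to 40.4 CPM against 28.9 to 68.1 CPM, where the highest value was that of control 1, and the log2 fold change was -0.19 with all libraries and 0.15 without it. Adrb3, the adrenergic receptor that starts lipolysis in fat cells, had 18, 11 and 40 counts against 89, 8, 16 and 13. By edgeR the log2 fold change was -0.44 (SE 0.81) with all libraries and 0.82 without control 1.

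Fatty acid synthesis did not move as a block. Acly, which makes cytosolic acetyl-CoA from citrate, had 182, 194 and 214 CPM in the f/f-labelled mice and 259, 209, 185 and 304 CPM in the controls. Acaca, acetyl-CoA carboxylase, had the lowest biological coefficient of variation of the group, with levels from 37.8 to 42.4 CPM against 35.02 to 39.2 CPM. Fasn, the synthase itself, had 100 CPM in libraries 1 and 2 and 186 CPM in library 3 against 295, 102, 109 and 246 CPM, with controls 1 and 4 high and the rest except library 3 near 100 CPM. The log2 fold changes of Acly, Acaca and Fasn were -0.28 (SE 0.21), 0.13 (SE 0.14) and -0.55 (SE 0.43). Without controls 1 and 4 those of Acly and Fasn were 0.0017 and 0.29, and that of Fasn was -0.24 without control 1.

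Scd1 and Scd2, neighboring stearoyl-CoA desaturase genes on chromosome 19 that place a double bond into fatty acids, did not share an order. Scd1 had 215, 355 and 250 CPM in the f/f-labelled mice and 342, 110, 166 and 157 CPM in the controls, with a log2 fold change of 0.50 (SE 0.37, edgeR adjusted p = 0.583). Without control 1 it was 0.92 (edgeR adjusted p = 0.369), without control 2 it was 0.30 and without f/f-labelled library 2 it was 0.27. Scd2 ranged from 56.1 to 120 CPM against 50.1 to 150.3 CPM, highest in control 4 and next in library 3, with a log2 fold change of -0.11 and of 0.27 without control 4. Per kb, Scd1 stood at 1.18 times Scd2 in control 4 and at 5.84 times in library 2. Reads of such similar genes can be misassigned, so both values are uncertain.

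Elovl6, which elongates palmitate, ranged from 10.8 to 13.3 CPM against 7.77 to 13.9 CPM, lowest in controls 1 and 4. Thrsp, the lipogenic protein Spot 14, ranged from 5.56 to 9.80 CPM against 6.84 to 18.2 CPM, again with control 1 on top. Their log2 fold changes were 0.22 (SE 0.24) and -0.38 (SE 0.38), and that of Thrsp was 0.060 without control 1.

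In triglyceride synthesis, Dgat1, which joins the last acyl chain to the glycerol backbone, was the only one of the 31 genes whose groups did not overlap. Dgat1 (GRCm38 chr15:76502012-76512021) had 85.4, 83.4 and 84.6 CPM in the f/f-labelled mice and 122, 95.2, 116 and 136 CPM in controls 1 to 4. The mean was 84.5 ± 1.05 CPM (SD, n = 3) against 117 ± 16.9 CPM (SD, n = 4). The log2 fold change was -0.47 (SE 0.16, edgeR unadjusted p = 0.0177, adjusted p = 0.511). A two-sided exact permutation test of log2(CPM + 0.5) gave p = 0.0571, where 3 against 4 allow no p below 0.0286. That test was run only for genes without overlap, here Dgat1 alone. Its p-value was therefore largely set by that choice and adds no support. Among all genes tested, 6.30% had every f/f-labelled library below every control and 5.05% had the opposite order, so 1 gene of 31 in the first order and 0 in the second lay below both shares.

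Agpat2, which adds the middle acyl chain and whose loss causes lipodystrophy (GRCm38 chr2:26593057-26604417), had 22.9, 28.4 and 32.3 CPM against 51.5, 33.3, 30.9 and 56.4 CPM. Controls 1 and 4 were high and control 3 lay below library 3. On the log2 scale the fold change was -0.63 (SE 0.26, edgeR unadjusted p = 0.0379, adjusted p = 0.511), and -0.20 without controls 1 and 4. Dgat2, the other diacylglycerol acyltransferase, ranged from 34.3 to 59.4 CPM against 42.04 to 79.4 CPM, a log2 fold change of -0.25 (SE 0.27), which was 0.12 without controls 1 and 4.

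Pck1, the carboxykinase that feeds glycerol synthesis in fasted fat cells (GRCm38 chr2:173153073-173159274), had the highest biological coefficient of variation of the group. It had 16.2, 17 and 4.69 CPM in the f/f-labelled mice and 63.3, 2.34, 8.72 and 0.870 CPM in the controls. Controls 1 and 4 lay 72.8-fold apart, and both groups overlapped widely. Its log2 fold change was -0.58 (SE 1.2, adjusted p = 0.831) with all libraries and 1.67 (SE 0.80, adjusted p = 0.464) without control 1, both from edgeR. Gpd1, the cytosolic dehydrogenase that makes glycerol 3-phosphate in fat and muscle, had 76.5, 124 and 121 CPM against 53.9, 41.8, 103 and 74.4 CPM, a log2 fold change of 0.65 (SE 0.32, edgeR adjusted p = 0.517).

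Car3 had 289, 385 and 360 CPM in the f/f-labelled mice and 262, 126, 307 and 140 CPM in the controls. Control 3 lay above library 1, and controls 2 and 4 were low. By edgeR the log2 fold change was 0.72 (SE 0.33, unadjusted p = 0.0569, adjusted p = 0.511).

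For the group as a whole, 0 of the 31 genes tested passed an adjusted p-value of 0.05 with edgeR's quasi-likelihood test, and among all 15098 genes the share was 0.00%. Unadjusted, 4 had a p-value under 0.05, Lpl and Slc2a4 above and Dgat1 and Agpat2 below, where 9.66% of all genes tested did so. DESeq2 called 0 of the 29 to which it gave a p-value, with 5 under 0.05 unadjusted (12.6% of all genes), and it gave none to Cfd and Cidec. The median log2 fold change was 0.11, with 17 genes above 0 and 14 below, beside a median of 0.01 over all genes tested. It was 0.55 without control 1 and -0.15 without control 2. Without control 1, 9 of the 31 genes had an unadjusted p-value under 0.05, as did 11.3% of all genes tested, and 0 passed after adjustment. The number of the 31 at an unadjusted p-value under 0.05 was 10 without control 3 (15.8% of all genes), 5 without f/f-labelled library 3 (9.03%), 3 without control 2 (10.8%) and 2 without library 1 (2.87%). It was 1 without library 2 (3.93%) and 1 without control 4 (6.35%).

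**Figure D3:**
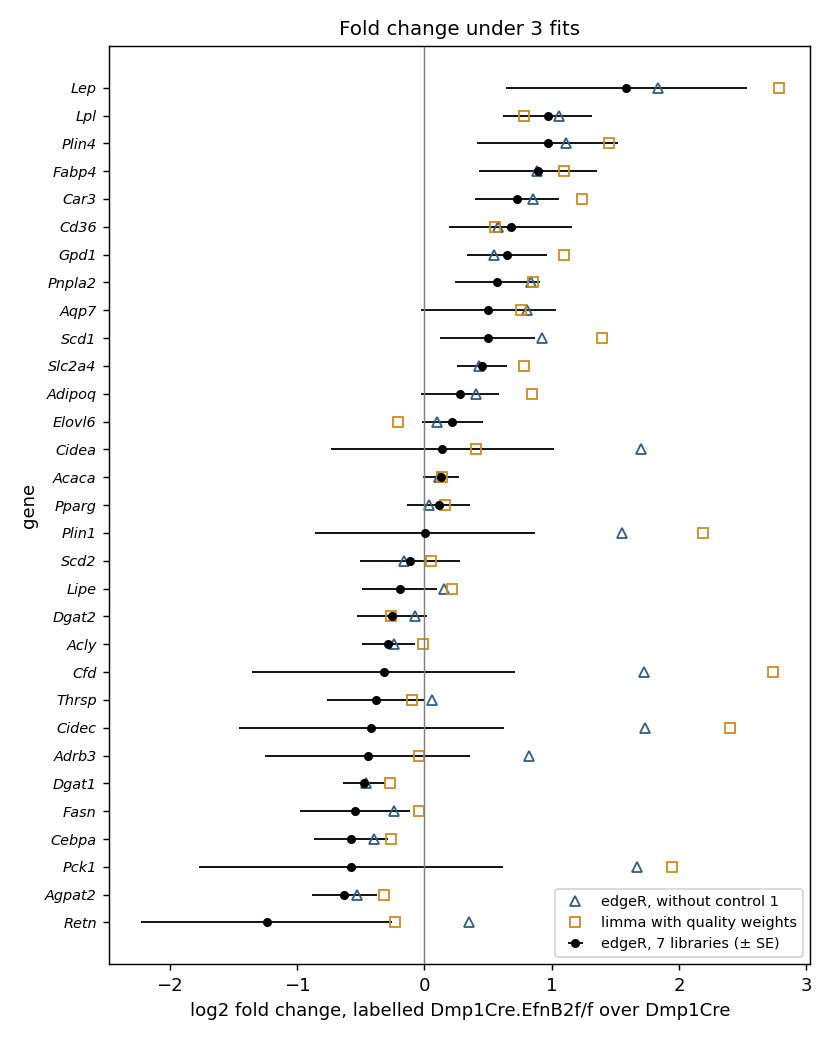
Log2 fold change of the 31 genes, libraries labelled Dmp1Cre.EfnB2f/f over Dmp1Cre. Filled circles with bars are edgeR estimates ± standard error from all 7 libraries, triangles are edgeR estimates without control 1, and squares are those of the limma pipeline with sample quality weights. The marks of Cfd, Cidec and Pck1 lie on opposite sides of 0, at -0.32, 1.72 and 2.74 for Cfd.

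The study's limma pipeline, run without its block for the day of collection because the labels do not give the day, did call genes of this group. With sample quality weights it called 11 of the 31 higher and 0 lower, where 7.49% of all genes tested were higher and 7.39% lower. The 11 were Scd1, Adipoq, Slc2a4, Car3, Cfd, Plin1, Pnpla2, Cidec, Plin4, Gpd1 and Fabp4, with adjusted p-values from limma of 0.0115 to 0.0397. Its log2 fold change of Cfd was 2.74 and that of Cidec 2.40, where edgeR gave -0.32 and -0.42. The pipeline gave control 1 a weight of 0.193 and control 4 a weight of 0.168. The largest weights were 7.28 for f/f-labelled library 2 and 3.26 for control 2. F/f-labelled libraries 1 and 3 and control 3 had 1.39, 0.713 and 1.32. The 11 calls thus lean most on f/f-labelled library 2 and control 2. Without weights it called 0 of the 31, with 6 at an unadjusted p-value under 0.05 (10.6% of all genes), and Cfd and Cidec had log2 fold changes of 0.97 and 0.64.

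The spread within a genotype was wider in the controls. The coefficient of variation was smaller in the 3 f/f-labelled libraries than in the 4 controls for 27 of the 31 genes, and for 84.9% of all genes tested. Between the highest and lowest library of that group, the median of the 31 genes was 1.72-fold, beside 1.26-fold over all genes tested with more than 3 counts in each of its libraries. Among the controls it was 2.46-fold over the 28 genes with more than 3 counts in each, beside 1.76-fold over all such genes, a range that also grows with the number of libraries. Plin1, Cfd, Adrb3, Cidec, Pck1 and Plin4 spanned more than 5-fold among the controls, as did 2.56% of all genes, and Lep did so in the other genotype, as did 0.531%.

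**Figure D4:**
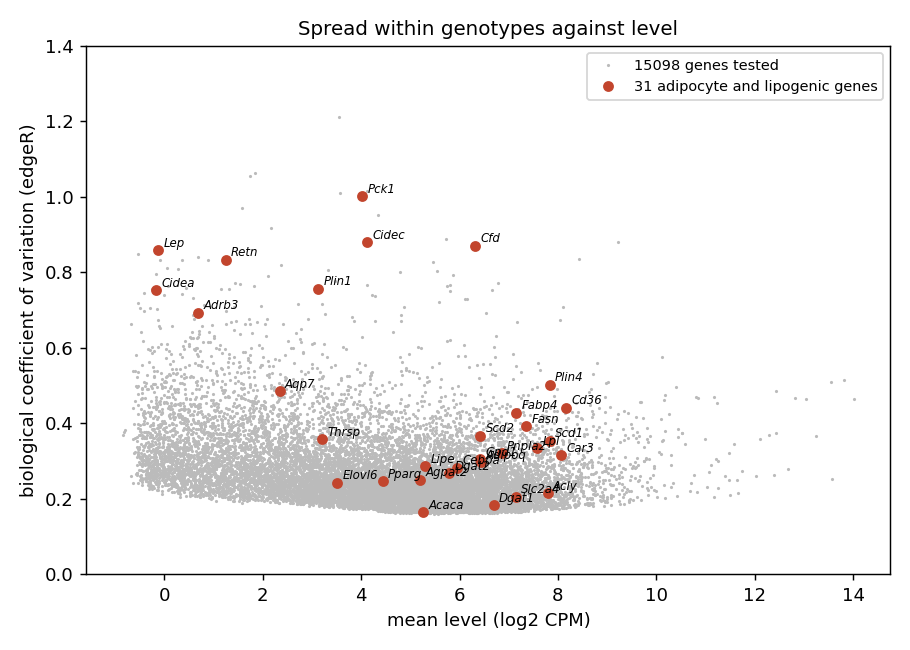
Biological coefficient of variation from edgeR (vertical axis) against the mean level in log2 CPM (horizontal axis) for the 15098 genes tested (grey) and the 31 adipocyte and lipogenic genes (red, labelled). Pck1 lies at 1.00, Cidec at 0.880 and Cfd at 0.870, while Acaca lies at 0.165 on the lower edge.

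The biological coefficient of variation was 0.353 at the median of the 31 genes and 0.242 over all genes. For 27 of the 31 it exceeded the median of genes in the same decile of level, and for 15 it was above the 90th percentile there. It was highest for Pck1 (1.00), Cidec (0.880), Cfd (0.870), Lep (0.858), Retn (0.833), Plin1 (0.757) and Cidea (0.752). At the other end were Acaca (0.165), Dgat1 (0.182), Slc2a4 (0.206) and Acly (0.215), below the median of genes at their level. These 4 were the only ones of the 31 below that median, and Fasn and Scd2, which are also enzymes of fatty acid synthesis, were among the 15 with a wide spread.

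Of 29 other adipocyte and lipid droplet genes tested, 0 passed after adjustment with edgeR, 3 were higher and 1 lower at an unadjusted p-value under 0.05, and the median log2 fold change was 0.09. Cav1, the coat protein of caveolae, was the only one whose groups did not overlap, with 79.8, 77.98 and 66.4 CPM in the f/f-labelled mice against 51.2, 31.9, 51.8 and 14.8 CPM. Of 33 other lipogenic genes, 0 passed after adjustment, 4 were higher and 2 lower at an unadjusted p-value under 0.05, and the median was 0.01. Me1, the malic enzyme that supplies NADPH, and Acsl3, which activates long-chain fatty acids, lay above every control in all 3 libraries, with log2 fold changes of 0.75 (SE 0.28) and 0.57 (SE 0.19) and an adjusted p-value of 0.511 each from edgeR. Among all genes tested 5.05% had that order, beside 1 of these 29 and 2 of these 33 genes. An unadjusted edgeR p-value under 0.05, in either direction, was found for 9.66% of all genes tested.

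Markers of other cells moved between the libraries as well. The 14 skeletal muscle markers summed to 32390, 47160 and 36240 CPM in the f/f-labelled mice and to 16430, 15300, 34030 and 17400 CPM in controls 1 to 4. As in Car3, Gpd1 and Slc2a4, f/f-labelled library 2 was the highest, control 2 the lowest and control 3 the highest control. All 14 had log2 fold changes above 0, with a median of 0.81. By edgeR 6 had an unadjusted p-value under 0.05 (9.66% of all genes tested) and 0 passed after adjustment. Their part in the levels of Car3, Gpd1, Slc2a4 and Plin4 was not tested.

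**Figure D5:**
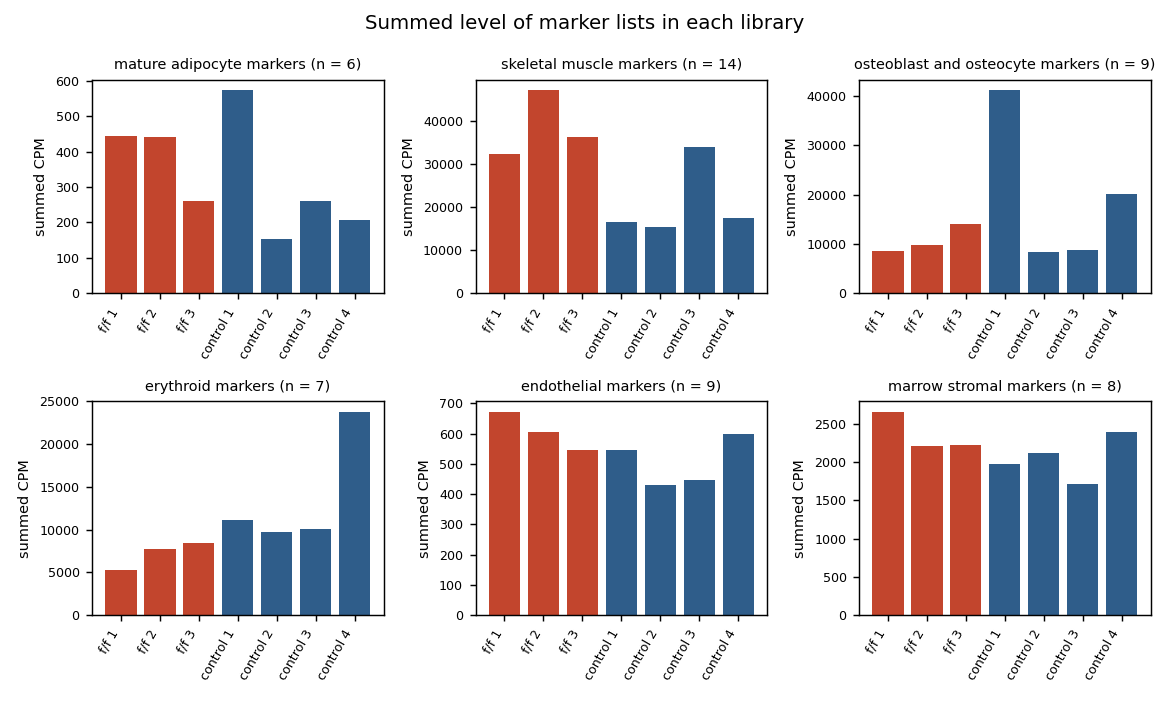
Summed CPM of 6 marker lists (panels, with the number of genes) in each library, as bars from 0 (red: labelled Dmp1Cre.EfnB2f/f; blue: Dmp1Cre). Control 1 was highest in mature adipocyte and in osteoblast and osteocyte markers, at 574 and 41180 CPM, and control 4 in erythroid markers, at 23810 CPM. Cfd alone gave 285 of the 574 CPM, and of the other adipocyte markers Adipoq, Fabp4 and Lep were highest in other libraries.

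The 9 osteoblast and osteocyte markers summed to 41180 CPM in control 1, 20200 CPM in control 4 and 8329 to 14130 CPM in the other 5 libraries, and Col1a1 made up 93.0% of the sum in control 1 and 92.7% in control 4. Control 1, the highest library for Cfd, Cidec, Plin1 and Pck1, was also the highest for 7 of the 9 bone markers. Ibsp and Phex were highest in f/f-labelled library 1, and in control 4 they were the lowest of the 7 libraries, at 168 and 42.5 CPM. The 7 erythroid markers counted in the files summed to 5298 to 8416 CPM in the f/f-labelled mice and to 9709, 10100, 11120 and 23810 CPM in the controls, with the last in control 4. That library was the lowest for 9 of the 31 genes, among them Fabp4, Plin4, Cd36, Lpl and Aqp7, and the highest for 6, among them Adipoq and Dgat1. Endothelial markers summed to 547 to 672 CPM against 429 to 597 CPM. Of these 9 markers, 3 (Emcn, Tek and Flt1) had every f/f-labelled library above every control, as did 5.05% of all genes tested. After adjustment 0 of the 9 passed with edgeR. The skeletal muscle and brown fat lists held 1 gene each in that order. In the opposite order, found for 6.30% of all genes, were 3 of the 9 granulocyte, 3 of the 7 erythroid and 1 of the 9 macrophage markers. Macrophage markers summed to 730 to 803 CPM against 699 to 1111 CPM, and slow muscle markers to 237 to 1547 CPM against 111 to 1634 CPM. Marrow stromal markers, led by Cxcl12, summed to 2208 to 2658 CPM against 1716 to 2393 CPM, and their median log2 fold change was 0.29. The brown fat list summed to 123 to 156 CPM against 75.6 to 115 CPM, but Ucp1, Elovl3 and Zic1 were under the filter and its highest gene, Cox8b, is also a gene of muscle. The part of these cells in the differences above was not tested.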

How the data were processed

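The authors mapped paired-end reads to mm10 with Rsubread and deposited raw counts per Entrez gene from featureCounts on its inbuilt annotation, with no normalization or filter. Aligner version and strand setting are not given in the sources used here. The submitters' processing notes name bcl2fastq 2.17.1.14. The table of the whole series holds the same counts and was not used.

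The filter required 0.65 CPM or more in 3 or more libraries (16302 genes). Removing immunoglobulin segments, predicted and pseudogenes, ribosomal RNA, entries lacking a symbol, and Y-linked genes with Xist left 15098. The test was the robust quasi-likelihood F-test of edgeR 4.0.16 on TMM-scaled libraries (R 4.3.3), adjusted by Benjamini-Hochberg. Standard errors are the log2 fold change over the square root of F. DESeq2 1.42.0 and the study's limma pipeline (limma 3.58.1, prior count 2, quantile normalization) were alternatives, as were other normalizations, filters, blocks and each library left out. The tests were tried on simulated counts. The series description gives 7 mice, and within genotypes libraries differed by more than sampling noise (chi-square per degree of freedom 33.4 to 218).

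Members and lists were chosen with earlier results of these data known, so no list was tested as a set. Every library's value is given for members among the 10 highest per kb, the 10 lowest p-values, groups without overlap or a spread over 5-fold. Other listed genes are named only where groups did not overlap or as a list's highest gene. Positions are RefSeq's on GRCm38.p6. GENCODE M21 transcripts were used to check that 23 of 26 promoter windows run in the direction of transcription.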

Additional observations from a re-analysis of the deposited data

Results flagged for a closer look

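In 9 of the 31 genes tested, a control lay far from the other 3. The measure is the distance to the next control as a share of the span of all 4. Chance gives a flag in about 1 in 20 groups, here about 1.55 genes, and genes of the same libraries are not independent. Over all 15098 genes tested the same measure picked 6.30%, and control 1 as the high library in 1.83%. In all 9 it was control 1, the highest control. The share was 0.896 for Cfd, 0.863 for Plin1, 0.924 for Cidec, 0.854 for Cidea, 0.834 for Lipe, 0.847 for Pnpla2, 0.884 for Adrb3, 0.876 for Thrsp and 0.874 for Pck1. Control 1 also held the highest summed level of osteoblast and osteocyte markers, 41180 CPM, of which 93.0% was Col1a1. What sets that library apart was not tested.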

How the results depend on the processing

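Over 19 alternatives, 9 of the 31 genes kept the direction of their log2 fold change in all (Acaca, Adipoq, Car3, Dgat1, Gpd1, Lep, Lpl, Scd1 and Slc2a4), and 63 of 585 estimates for single genes were reversed. With edgeR the number of the 31 genes past the threshold was 0 under every alternative, and 11 with limma and quality weights. Over all genes, limma with weights called 1131 higher and 1115 lower and DESeq2 24 and 48. The median log2 fold change of the group was 0.56 under limma with weights, 0.40 under limma without weights and 0.47 without controls 1 and 4 (26 of 31 genes above 0), and ran from -0.15 (without control 2) to 0.55 (without control 1) as single libraries were left out, which gave 0 to 1 genes higher and 0 to 2 lower over all genes (2 lower without f/f-labelled library 3, 1 of each without control 4).

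Leaving out single libraries moved the log2 fold change of Cfd from -0.71 to 1.72, Cidec from -0.86 to 1.73, Pck1 from -0.97 to 1.67, Plin1 from -0.36 to 1.55, Cidea from -0.39 to 1.70, Retn from -1.63 to 0.35, Adrb3 from -1.07 to 0.82, Scd2 from -0.50 to 0.27, Thrsp from -0.58 to 0.060, Lipe from -0.33 to 0.15 and Pparg from -0.031 to 0.34. In each of the first 7 the highest value came without control 1. Leaving out controls 1 and 4 together, chosen after seeing the data, gave 1 gene higher and 1 lower over all genes, and 2.34 for Cfd, 1.73 for Cidec, 1.2 for Pck1, 0.84 for Adrb3, 0.41 for Scd2, 0.29 for Fasn, 0.21 for Lipe, 0.12 for Dgat2, 0.049 for Thrsp, 0.0017 for Acly and -0.073 for Elovl6.

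Reversed under limma with weights were Cfd (2.74), Cidec (2.40), Pck1 (1.95), Lipe (0.22), Scd2 (0.053) and Elovl6 (-0.21), and without weights Cfd (0.97), Pck1 (0.71) and Cidec (0.64). Plin1, at 0.00 in the main estimate, was -0.015 with DESeq2 size factors, -0.011 with DESeq2 and -0.012 with all gene classes kept, and Scd2 was 0.0073 by library size only.

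With the parent cross as a block, which rests on 1 mouse of each genotype, 21 of the 31 genes had estimates above 0, with a median of 0.20. Reversed estimates were 1.80 for Cfd, 1.26 for Scd2, 1.17 for Adrb3, 0.78 for Fasn, 0.56 for Cidec, 0.42 for Cebpa, 0.25 for Thrsp, 0.21 for Acly, 0.16 for Dgat2, 0.064 for Agpat2, -0.026 for Pnpla2, -0.12 for Elovl6, -0.99 for Plin4, -0.99 for Fabp4, -1.04 for Aqp7 and -1.16 for Cd36. The replicate numbers do not pair the mice, since deviations of same-numbered libraries correlated at -0.147, 0.0712 and -0.438. With the replicate block 1 gene was higher and 0 lower, and Cfd (1.21), Cidec (0.44) and Scd2 (0.22) were reversed. The causes were not tested. Ucp1, at 0 or 1 count a library, could not be tested at this depth.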
